A study of Mus musculus with 2 samples.

Results

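The genes described are 44 stellate cell and extracellular matrix genes, taken by gene symbol from a written list out of the 53241 distinct symbols of the liver tables of 1 control and 1 iFIRKO library. They fall into 5 groups by role, namely 6 markers of the quiescent hepatic stellate cell, 7 markers of its activation, 13 collagen chains, 10 other matrix proteins and 8 genes of matrix remodelling. All 44 symbols were found in both libraries, and all 44 passed the expression minimum in 1 or both libraries (*Lox* in the iFIRKO library alone). The rule used gene names and no measured value, but the list was chosen with earlier results of these data known.

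Liver RNA came from male mice that were 7 weeks old when tamoxifen was given. The dose was 100 mg/kg intraperitoneally on 5 days, and the mice were examined 3 days after the last dose. The iFIRKO mice were Adipoq-CreERT2; Insr flox/flox, where the adiponectin promoter drives a Cre recombinase that tamoxifen switches on and that deletes the insulin receptor gene in adipocytes. The control mice are given as WT in the labels and as IR flox/flox in the study's methods, and they received the same tamoxifen. The comparison asks what the liver transcriptome looked like soon after the loss of mature adipocytes. The adiponectin promoter directs the Cre to adipocytes, and *Insr* in these liver libraries stood at 4246 normalized reads in control liver and 3692 in iFIRKO liver. Neither source states whether a library was made from 1 mouse or from pooled mice. None of the differences described here could therefore be checked against replicates, and no p-value was computed.

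Hepatic stellate cells lie between hepatocytes and the sinusoidal endothelium. At rest they store vitamin A as retinyl esters, and after liver injury they can turn into contractile myofibroblast-like cells that express smooth muscle actin and secrete fibrillar collagen. Transforming growth factor β1 and platelet-derived growth factor are the best known signals of that switch. The matrix they and their neighbours build holds fibrillar collagens in the portal and perisinusoidal space, basement membrane components such as type IV collagen and laminin, and proteoglycans, and it is turned over by metalloproteinases and their inhibitors. Hepatocytes and endothelial cells also make several of these proteins, so in liver RNA fewer cells of a type and less RNA per cell cannot be told apart.

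The libraries were of similar size, with totals of 42003900 normalized reads (control) and 41579630 (iFIRKO). A level below is the deposited value taken back from log2 to the linear scale, in normalized reads, and where a pair of levels is given the control library comes first. A fold is the iFIRKO over the control level, after 4.18 normalized reads were added to each as a pseudocount, which equals a CPM (counts scaled to a fixed library total) of 0.1. Genes at a CPM of 1 or more (41.8 normalized reads) in 1 or both libraries were counted as tested, and a fold above 1.5 in either direction, the study's own limit, was called higher or lower. Each log2 fold is followed by an exact 95% interval on the estimated read pairs, which covers counting error only.

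Of the 44 genes, 0 were called higher and 1 was called lower in the iFIRKO library, where 4.46% of the 13390 genes tested were called higher and 7.29% lower. The gene called lower was *Tgfb1*. The median log2 fold of the 44 genes was 0.04, with quartiles of -0.11 and 0.21, against a median of 0.01 and quartiles of -0.19 and 0.17 over all genes tested. The iFIRKO value was above the control value for 26 genes and below it for 18, and 28 genes lay within 0.2 of 0 on the log2 scale. The counting interval lay above 0 for 9 genes, below 0 for 7 and held 0 for 28. In both directions the share of the 44 genes called was below that of all genes, which for a list of this size is a difference of a few genes. At a minimum CPM of 5 (209 normalized reads), 38 of the 44 genes remained, with 0 higher and 1 lower, beside 2.84% and 4.34% of 10136 genes, and their median and that of all genes were both 0.02.

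**Figure D1:**
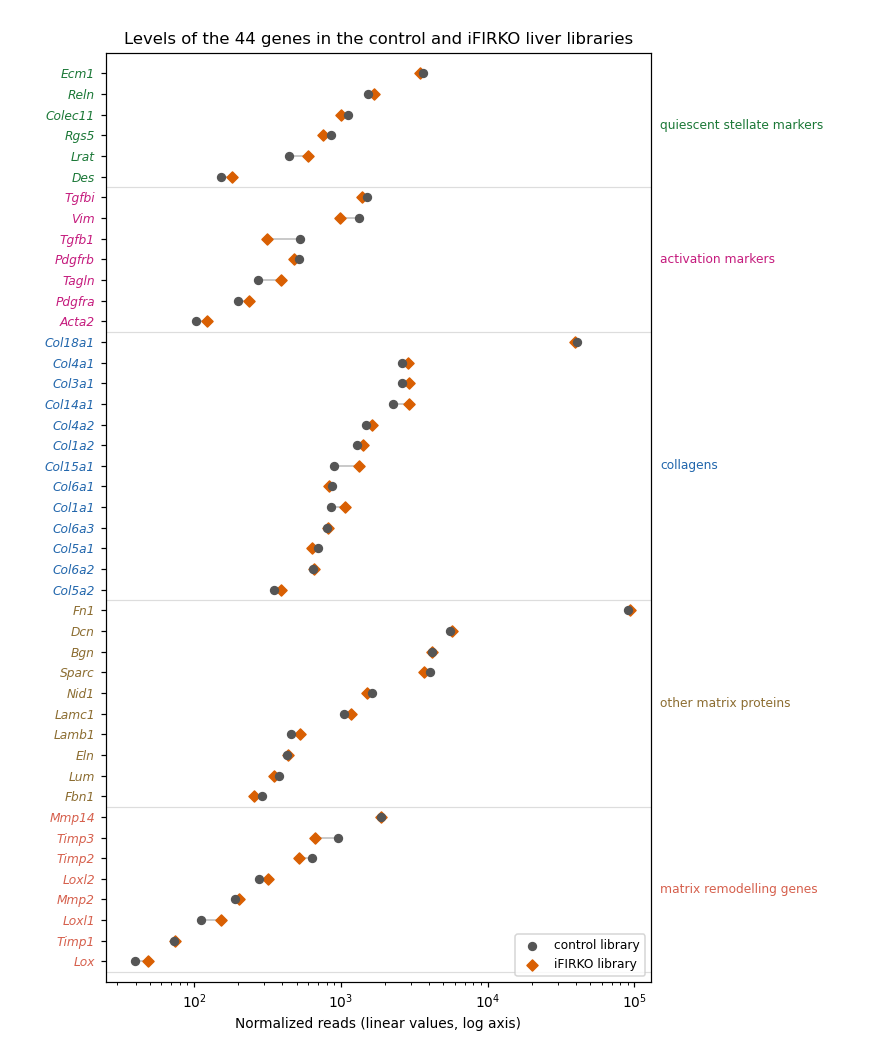
Level of each of the 44 genes in the control library (grey circles) and the iFIRKO library (orange diamonds), in normalized reads on a log axis, with the genes grouped by role and ordered by level. Fn1 and Col18a1 lie far to the right of the rest, and the 2 points of most genes nearly coincide, with the widest gaps at Tgfb1, Col15a1, Tagln and Timp3.

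Summed over the 44 genes, the level was 180175 normalized reads in control liver and 182968 in iFIRKO liver, a log2 ratio of 0.02 (interval 0.01 to 0.04). These genes took 0.429% and 0.440% of all normalized reads. Fibronectin and the α1 chain of type XVIII collagen, both of which hepatocytes are known to make, held most of that sum. *Fn1* alone took 49.9% of it in control liver and 50.6% in iFIRKO liver, and *Col18a1* took 22.5% and 21.6%. Without them the sum of the other 42 genes was 49738 and 50791 normalized reads, a log2 ratio of 0.03 (interval 0.005 to 0.06).

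**Figure D2:**
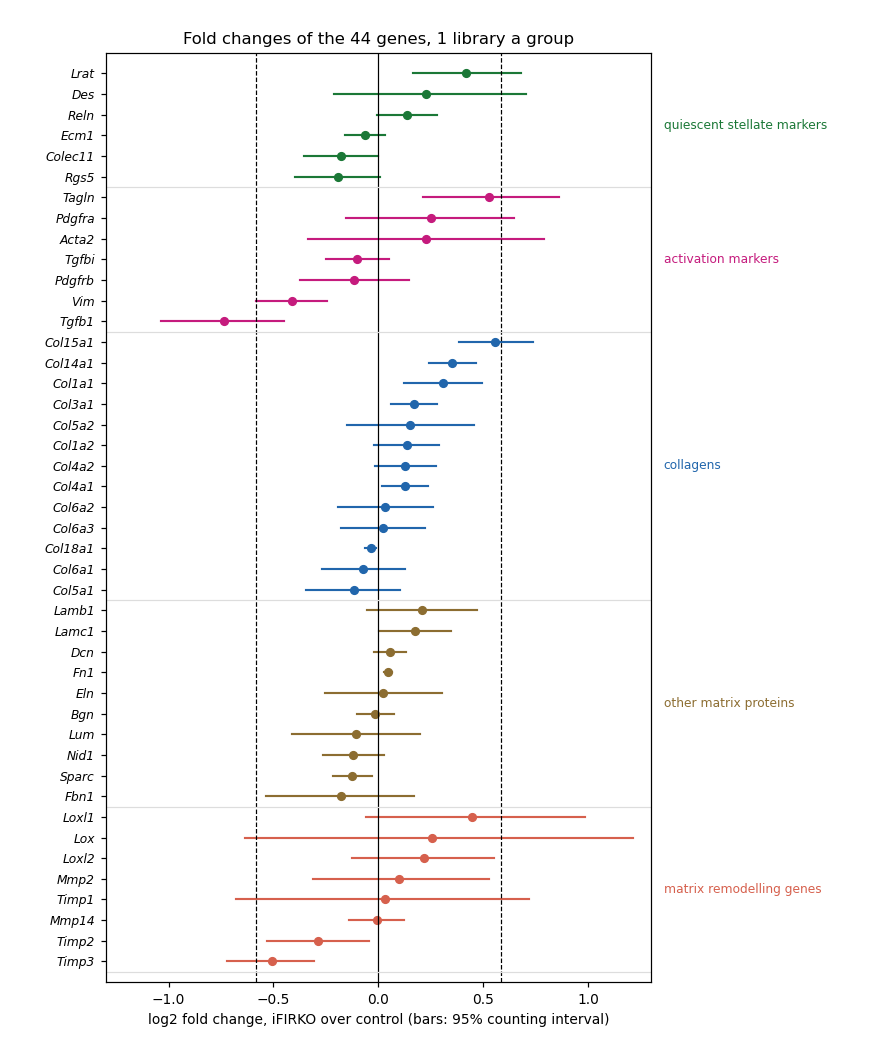
Log2 fold change of each of the 44 genes, iFIRKO over control, with 1 library a group; bars are 95% counting intervals, dashed lines mark a fold of 1.5 in each direction, and colours mark the role groups. Tgfb1 is the only point beyond a dashed line, and Col15a1 at 0.56 lies just inside the upper one.

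The quiescent stellate markers did not move in 1 direction, with 3 of 6 above 0, 3 below and 0 called. *Lrat*, the acyltransferase that esterifies retinol for storage, stood at 444 normalized reads in control liver and 595 in iFIRKO liver. The iFIRKO library was thus the higher, by a log2 fold of 0.42 (interval 0.17 to 0.68). *Reln*, which encodes the secreted glycoprotein reelin, read 1534 and 1688 normalized reads, a log2 fold of 0.14 whose interval held 0 (-0.0055 to 0.28). *Des*, the intermediate filament desmin, was among the lower genes of the list, at 153 and 180 normalized reads (log2 fold 0.23, interval -0.21 to 0.70).

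The other 3 of the 6 had log2 folds below 0. The collectin gene *Colec11*, a soluble lectin of innate immunity, read 1126 and 995 normalized reads (log2 fold -0.18, interval -0.36 to -0.0034). *Rgs5*, a regulator of G protein signalling also found in pericytes, read 862 and 754 (log2 fold -0.19, interval -0.40 to 0.0071). *Ecm1*, a secreted matrix glycoprotein, was the most abundant of the 6 at 3629 and 3472 normalized reads, and its log2 fold was -0.06 (interval -0.16 to 0.03). The summed level of the 6 markers was 7749 normalized reads in control liver and 7684 in iFIRKO liver, a log2 ratio of -0.01 (interval -0.08 to 0.05). All 6 markers were therefore present in both libraries. *Ecm1* makes up the largest part of their summed level. The counting interval lay above 0 for *Lrat*, below 0 for *Colec11* and held 0 for the other 4.

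Markers of activation were split, with 3 of 7 above 0 and 4 below, a median log2 fold of -0.10, 0 called higher and 1 called lower. *Tgfb1* encodes transforming growth factor β1, the cytokine that drives collagen synthesis in activated stellate cells and that macrophages, platelets and endothelial cells also make. Its level was 524 normalized reads in control liver (264 read pairs) and 314 in iFIRKO liver (156 read pairs). The iFIRKO library was the lower, with a fold of 0.60, a log2 fold of -0.73 and an interval of -1.04 to -0.45, and 4.56% of all genes tested lay at or below that log2 fold. *Vim*, the intermediate filament vimentin of mesenchymal cells, leukocytes and endothelium, was also lower, at 1326 and 995 normalized reads (log2 fold -0.41, interval -0.59 to -0.24), without reaching the fold of 1.5.

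Neither of the cytoskeletal genes of the contractile cell was called. *Tagln*, which encodes the actin-binding protein transgelin, read 272 normalized reads in control liver and 394 in iFIRKO liver, a log2 fold of 0.52 (interval 0.21 to 0.86). That gene shares 67.9% of its exon bases with *Pcsk7* on the opposite strand, and use of strand in the counting is not given in the sources used here. *Pcsk7* read 1494 and 1501 normalized reads, a log2 fold of 0.01. *Acta2*, smooth muscle α-actin and the usual marker of the activated stellate cell, was scarce in both libraries, at 103 and 122 normalized reads, and its interval held 0 (log2 fold 0.23, interval -0.33 to 0.79).

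The growth factor receptors and the TGF-β-induced gene differed little. The platelet-derived growth factor receptor genes read 198 and 237 normalized reads for *Pdgfra* and 516 and 476 for *Pdgfrb*. Their log2 folds were 0.25 (interval -0.15 to 0.65) and -0.11 (interval -0.37 to 0.14), so that both intervals held 0. *Tgfbi*, a secreted adhesion protein induced by TGF-β, read 1501 and 1398 normalized reads (log2 fold -0.10, interval -0.25 to 0.05). Over the 7 genes the summed level was 4441 and 3935 normalized reads, a log2 ratio of -0.17 (interval -0.26 to -0.09). The largest falls in reads were those of *Vim* (1326 and 995) and *Tgfb1* (524 and 314), which other liver cells also express. The interval lay below 0 for these 2 genes, above 0 for *Tagln* and held 0 for the other 4. By sign, 3 of the 7 lay above 0 and 4 below.

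Markers of other liver cells moved beside these values. All 9 markers of Kupffer cells and macrophages were lower in the iFIRKO library, 5 of them past the fold of 1.5, with a median log2 fold of -0.59 and a summed level of 26911 normalized reads in control liver and 18300 in iFIRKO liver. *Cd68*, a lysosomal protein of macrophages, read 797 and 399. The 9 markers of sinusoidal endothelial cells were lower too, 2 of them past the fold, with a median of -0.42 and a summed level of 15168 and 11553 normalized reads. Over all 13390 genes tested, 7.29% were called lower and 6519 lay below 0. None of these 18 markers was at 0 in either library. Their part in the lower *Tgfb1*, *Vim*, *Timp2* and *Timp3* values was not tested.

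**Figure D3:**
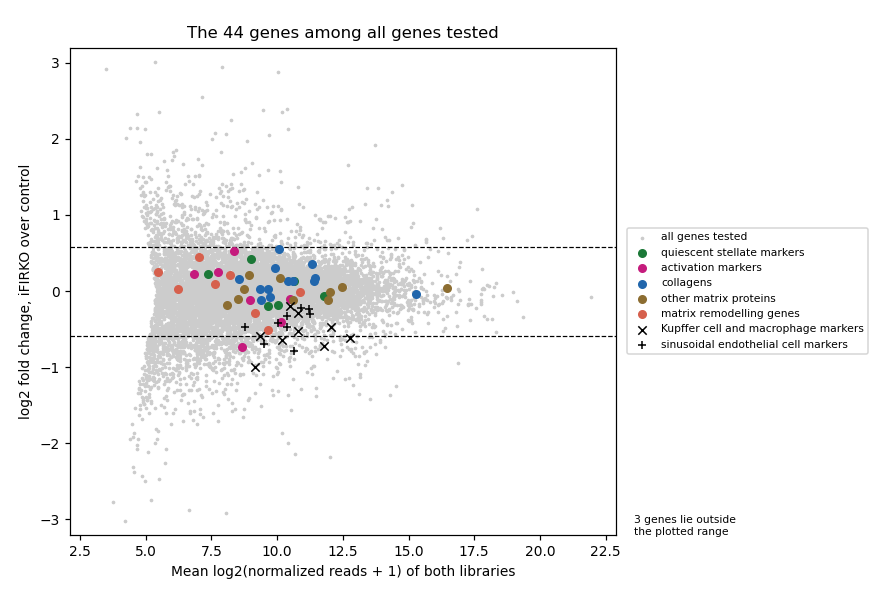
Log2 fold change, iFIRKO over control, against the mean log2 level of both libraries for all 13390 genes tested (grey), with the 44 genes in colours by role, Kupffer cell and macrophage markers as crosses and sinusoidal endothelial markers as plus signs. The dashed lines mark a fold of 1.5, and 3 genes lie outside the plotted range. The 44 genes spread around 0, whereas the 9 macrophage and 9 endothelial markers all lie below it.

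Of the collagen chains, 10 of 13 (76.9%) were above 0 and 3 below, and none was called higher or lower. All genes tested were above 0 in 51.3% of cases. The median log2 fold of the 13 chains was 0.13, and their range ran from -0.12 to 0.56. The interval lay above 0 for 5 chains (*Col15a1*, *Col14a1*, *Col1a1*, *Col3a1* and *Col4a1*), below 0 for *Col18a1* and held 0 for the other 7. Without *Col18a1*, the summed level of the 12 remaining chains was 15397 normalized reads in control liver and 17456 in iFIRKO liver, a log2 ratio of 0.18 (interval 0.14 to 0.23). With it the sum was 55980 and 57000 (log2 ratio 0.03, interval 0.0022 to 0.05), since that 1 chain outweighs the other 12.

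The fibrillar chains of type I and type III collagen, the main products of the fibrogenic cell, had 0 calls among 3, with intervals above 0 for *Col1a1* and *Col3a1*. *Col1a1* read 862 and 1067 normalized reads (log2 fold 0.31, interval 0.12 to 0.49). Its partner chain *Col1a2* read 1297 and 1424 (log2 fold 0.13, interval -0.02 to 0.29). *Col3a1* read 2598 and 2919 (log2 fold 0.17, interval 0.06 to 0.28). The minor fibrillar chains of type V collagen, which help set fibril diameter, did not share a direction, at 695 and 641 normalized reads for *Col5a1* and 351 and 391 for *Col5a2*. Both type V intervals held 0. *Col3a1* and *Col5a2* lie 24.6 kb apart on opposite strands of chromosome 1, with log2 folds of 0.17 and 0.15.

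The members with the largest log2 folds among the collagens were not the main fibrillar ones. *Col15a1*, a chain of the basement membrane zone around vessels, read 897 normalized reads in control liver and 1320 in iFIRKO liver. Its fold of 1.47 (log2 fold 0.56, interval 0.38 to 0.74) lay just under the limit of 1.5, and only *Tgfb1* lay beyond that limit on the other side. *Col14a1*, which binds to the surface of collagen fibrils, read 2268 and 2895 (log2 fold 0.35, interval 0.24 to 0.47). *Col18a1*, the parent of endostatin, was nearly level at 40583 and 39544 normalized reads, where the large counts gave a narrow interval of -0.07 to -0.0091 around a log2 fold of -0.04.

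No chain of types IV and VI was called. *Col4a1* and *Col4a2*, which assemble into the common type IV trimer of basement membranes, read 2615 and 2860, and 1493 and 1633 normalized reads, and both had a log2 fold of 0.13 (intervals 0.02 to 0.24 and -0.02 to 0.27). The type VI chains, which form beaded microfilaments around cells, had log2 folds of -0.07 (*Col6a1*), 0.03 (*Col6a2*) and 0.02 (*Col6a3*), all with intervals that held 0. Their levels lay between 645 and 868 normalized reads in the control library and between 660 and 825 in the iFIRKO library.

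Chains of 1 protein are better compared per kb of exon, since reads grow with transcript length. Per kb of the union of annotated exons, *Col1a1* over *Col1a2* was 1.26 in control liver and 1.42 in iFIRKO liver. With the longest annotated transcript in place of the union the ratio was 0.600 and 0.676, so the order of these chains depends on the length used, while the log2 change between libraries of 0.17 does not. For *Col4a1* over *Col4a2* the ratio was 1.55 in both libraries, and 1.71 in both with the longest transcript. *Col6a1* over *Col6a2* was 2.56 and 2.38 by the union of exons (1.61 and 1.499 by the longest transcript), and *Col6a3* over *Col6a1* was 0.341 and 0.364 (0.378 and 0.404).

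**Figure D4:**
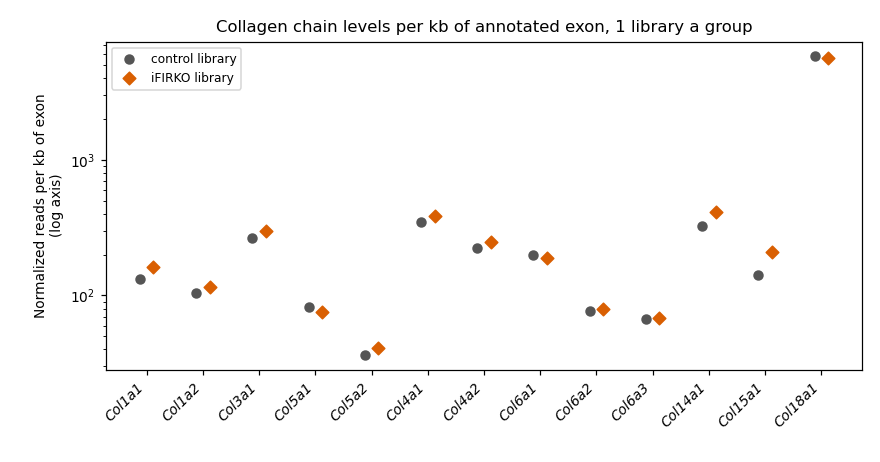
Level of the 13 collagen chains in normalized reads per kb of annotated exon (union of exons) on a log axis, in the control library (grey circles) and the iFIRKO library (orange diamonds), 1 library a group. Col18a1 lies above all other chains at 5780 and 5632 reads per kb, and Col5a2 lies lowest at 36.6 and 40.7.

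The 10 other matrix proteins were evenly split, 5 above 0 and 5 below, with 0 called and a median log2 fold of 0.003. *Fn1*, fibronectin, was the most abundant gene of the list both by reads and per kb, at 89854 normalized reads in control liver and 92632 in iFIRKO liver (log2 fold 0.04, interval 0.03 to 0.06). The small leucine-rich proteoglycans were near level in both libraries. *Dcn*, decorin, read 5518 and 5740 normalized reads, *Bgn*, biglycan, 4197 and 4152, and *Lum*, lumican, 378 and 350. *Dcn* and *Lum*, 47.0 kb apart on the same strand of chromosome 10, had log2 folds of 0.06 and -0.11, and the intervals of all 3 proteoglycans held 0.

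None of the basement membrane and elastic fibre genes was called. The laminin chain genes *Lamb1* and *Lamc1* read 455 and 526, and 1045 and 1179 normalized reads, with log2 folds of 0.21 (interval -0.05 to 0.47) and 0.17 (interval 0.0024 to 0.35). Their ratio per kb, *Lamb1* over *Lamc1*, was 0.363 and 0.372. *Nid1*, the nidogen that bridges laminin and type IV collagen, read 1628 and 1498 (log2 fold -0.12, interval -0.26 to 0.03). The collagen-binding protein gene *Sparc* (osteonectin) was lower by more than its counting error, at 4046 and 3713 normalized reads (log2 fold -0.12, interval -0.22 to -0.03). The elastic fibre genes had intervals that held 0, at 427 and 434 normalized reads for *Eln* (elastin) and 290 and 256 for *Fbn1* (fibrillin-1). *Fbn1* shares 20.1% of its exon bases with *Gm9913* on the opposite strand, which was at 0 in both libraries.

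Matrix remodelling genes had a median log2 fold of 0.06, with 5 of 8 above 0, 3 below and 0 called. *Lox*, 1 of those above 0, passed the expression minimum through the iFIRKO library alone. With a CPM of 1 in both libraries the median was 0.03. The lowest log2 folds of the group belonged to inhibitors of metalloproteinases. *Timp3*, the inhibitor that stays bound to the matrix, read 955 normalized reads in control liver and 669 in iFIRKO liver (log2 fold -0.51, interval -0.72 to -0.31). *Timp2* read 633 and 518 (log2 fold -0.29, interval -0.53 to -0.05). *Timp1*, the inhibitor best known for its rise in injured liver, was near the expression minimum in both libraries at 72.6 and 74.2 normalized reads, and its interval ran from -0.68 to 0.72. *Timp3* lies within *Syn3* on the opposite strand and shares 21.3% of its exon bases with it, and *Syn3* itself read 6.17 and 14.1 normalized reads.

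Neither metalloproteinase was called, and both intervals held 0. *Mmp14*, the membrane-bound metalloproteinase that activates the MMP2 proenzyme, read 1892 and 1881 normalized reads (log2 fold -0.01, interval -0.14 to 0.12). *Mmp2*, a gelatinase, read 190 and 203 (log2 fold 0.10, interval -0.31 to 0.53). *Mmp2* over *Timp2*, its inhibitor and cofactor, was 0.347 per kb in control liver and 0.453 in iFIRKO liver, a log2 change of 0.39, to which *Timp2* contributed more than *Mmp2*.

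The lysyl oxidases, which cross-link collagen and elastin, were few in reads, with 0 called and all 3 intervals holding 0. *Loxl1* read 111 and 153 normalized reads (log2 fold 0.44, interval -0.06 to 0.98), *Loxl2* 275 and 321, and *Lox* 39.7 and 48.3. *Lox* was the lowest of the 44 genes per kb, with 8.32 and 10.1 reads. Summed over the 8 remodelling genes, the level was 4168 and 3869 normalized reads, a log2 ratio of -0.11 (interval -0.20 to -0.02), of opposite sign to the median because *Timp2* and *Timp3* are among its more abundant members.

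Levels per kb of exon set the 44 genes in a similar order in both libraries, where the largest shift was that of *Tgfb1* from rank 26 to rank 33. *Fn1* led with 7690 reads per kb in control liver and 7927 in iFIRKO liver, followed by *Col18a1* and then by *Ecm1* with 1439 and 1377. *Sparc* and *Dcn* came next and exchanged places, at 1068 and 945 reads per kb in the control library and 980 and 983 in the iFIRKO library. The first 7 genes in the control library, closed by *Colec11* and *Bgn* at 695 and 688, were the first 7 in the iFIRKO library as well. With the longest transcript as the length, these 7 genes were again the most abundant.

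Promoter sequences are shown for a few members that results above turn on. RefSeq (GRCm38.p6) gave a promoter window for 30 of the 44 genes, and the 250 bases before each start were searched on both strands for 4 motifs. The TATA box was searched as TATAAA. The GC box was searched as GGGCGG. For the AP-1-like site the letters were TGANTCA, and the CCAAT box is its own name. A match is a description of letters and not of a bound site. Capitals mark GC boxes and CCAAT boxes on either strand, and all sequences run 5′ to 3′ on the strand of the gene. The *Tgfb1* window is shown because it belongs to the 1 gene called lower, and it lies at chr7:25686752-25687001 on the plus strand, next to the annotated gene at 25687002 to 25705077.
Tgfb1: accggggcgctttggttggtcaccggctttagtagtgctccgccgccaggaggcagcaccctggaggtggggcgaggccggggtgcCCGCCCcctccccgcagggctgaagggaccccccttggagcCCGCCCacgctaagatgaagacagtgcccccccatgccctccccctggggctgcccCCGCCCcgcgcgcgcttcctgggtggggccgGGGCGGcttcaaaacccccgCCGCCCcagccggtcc
It held 5 GC boxes, of which the nearest spans bases -16 to -11 from the start, and 1.93% of the 32851 promoters searched held as many or more. Its GC content was 75.2%.

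*Timp3* had the next lowest log2 fold, and its window up to the annotated start of the gene is at chr10:86300162-86300371 on the plus strand. None of the motifs lies in the 210 bases shown, and a GC box lies after them at -15 to -10 from the RefSeq start.
Timp3: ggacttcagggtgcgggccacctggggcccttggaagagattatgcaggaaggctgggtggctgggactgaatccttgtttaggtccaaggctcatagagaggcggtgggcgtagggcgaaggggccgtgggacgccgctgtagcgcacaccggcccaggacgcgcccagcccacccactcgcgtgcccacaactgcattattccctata
*Col15a1*, with the highest log2 fold, has its window at chr4:47207762-47208011 on the plus strand and held none of the 4 motifs. The RefSeq start lies before the GENCODE start of the gene at 47208161, and the GC content was 53.6%.
Col15a1: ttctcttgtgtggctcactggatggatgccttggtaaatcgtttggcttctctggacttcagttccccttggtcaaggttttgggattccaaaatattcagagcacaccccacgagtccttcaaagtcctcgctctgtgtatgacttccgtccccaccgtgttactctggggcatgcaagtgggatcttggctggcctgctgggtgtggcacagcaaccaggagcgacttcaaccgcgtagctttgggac
*Lrat*, the quiescent marker with the highest log2 fold, has its window at chr3:82903975-82904224 on the minus strand, with a CCAAT box at -81 to -77 and a GC box at -45 to -40.
Lrat: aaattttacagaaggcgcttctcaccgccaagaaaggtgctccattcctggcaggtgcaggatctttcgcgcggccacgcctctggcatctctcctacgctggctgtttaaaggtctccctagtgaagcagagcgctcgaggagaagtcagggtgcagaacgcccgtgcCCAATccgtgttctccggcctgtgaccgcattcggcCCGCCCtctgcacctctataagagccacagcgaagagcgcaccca
*Col4a1* and *Col4a2* are transcribed head to head on chromosome 8, and their annotated starts overlap by 22 bases at chr8:11312805-11312826, shown on the plus strand because both chains had the same log2 fold of 0.13.
Col4a1 and Col4a2: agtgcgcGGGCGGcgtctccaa

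Over the 32 windows of these 30 genes, 62.5% held a GC box, against 32.7% of all 32851 promoters, and this included 19 genes. A CCAAT box stood in 37.5% of the windows and 33.8% of all promoters, a TATA box in 9.38% and 12.4%, and an AP-1-like site in 6.25% and 6.75%. The 3 genes with a TATA box were *Col3a1*, *Ecm1* and *Vim*.

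Other genes of the same pathways were counted from lists written for this purpose. Over 7 lists, 102 of 113 genes found were tested, with 2 called higher and 7 called lower and a median log2 fold of -0.01, beside the 4.46% and 7.29% of all genes tested. In the TGF-β list, 19 genes were tested, 0 were higher and 2 lower, 12 lay below 0 and the median was -0.13. Those called lower were *Bambi*, a decoy receptor, at 93.96 and 57.5 normalized reads (log2 fold -0.67, interval -1.40 to 0.02), and *Ltbp1*, which anchors latent TGF-β in the matrix, at 187 and 119 (log2 fold -0.64, interval -1.15 to -0.17). *Ltbp4* read 1865 and 1478 (log2 fold -0.33, interval -0.48 to -0.20), while the receptor gene *Tgfbr2* read 1519 and 1430. With a pseudocount of a CPM of 1, or with a minimum CPM of 5, 0 genes of this list were lower.

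Among 15 other stellate genes tested, the median log2 fold was 0.09, with 8 above 0 and 7 below. *Cxcl12*, a chemokine, was the most abundant gene of this list at 12439 and 11598, and *Angptl6* and *Hand2* had log2 folds of 0.47 and 0.43. The 4 genes for ligands of the PDGF receptors had 0 calls, with *Pdgfa* and *Pdgfd* at 0.49 and 0.52 and *Pdgfb* and *Pdgfc* at -0.52 and -0.40.

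Genes for folding and processing of collagen had 0 calls among 16, and a median log2 fold of -0.05. *Ppib*, a prolyl isomerase of the endoplasmic reticulum, read 10041 and 7780 normalized reads (log2 fold -0.37, interval -0.43 to -0.31), and *Crtap*, a subunit of the prolyl 3-hydroxylase complex, had a log2 fold of -0.53. *P4hb*, which encodes protein disulfide isomerase, also the β subunit of prolyl 4-hydroxylase, was close to level at 71241 and 67826. Of the 16 genes 6 lay above 0 and 10 below, while 10 of the 13 collagen chains lay above it.

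Of 22 further basement membrane and matrix genes tested, 2 were higher, 1 was lower and 15 lay above 0, with a median log2 fold of 0.21. Over all genes tested, 4.46% were higher and 7.29% lower. *Col5a3*, the third chain of type V collagen, read 1966 normalized reads in control liver and 3921 in iFIRKO liver, a log2 fold of 0.99 (interval 0.88 to 1.11), well beyond its partner chains *Col5a1* at -0.12 and *Col5a2* at 0.15. The other gene called higher, *Tnc* (tenascin-C), rested on few reads, at 23.8 and 46.3, passed the minimum through the iFIRKO library alone, and had an interval that held 0. With a CPM of 1 in both libraries, a CPM of 5 or a pseudocount of a CPM of 1, the list held 1 gene called higher. *Lama4*, a laminin chain of endothelial basement membranes, was the 1 called lower, at 219 and 142 (log2 fold -0.61, interval -1.09 to -0.19), and 0 were lower with the larger pseudocount.

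Matrix receptors had 0 calls among 11 genes and a median of -0.01, with the heparan sulfate proteoglycan *Sdc4* at 16451 and 11248 normalized reads (log2 fold -0.55, interval -0.60 to -0.50) and the fibronectin receptor subunit *Itga5* at 1661 and 2193 (log2 fold 0.40, interval 0.27 to 0.53). Of 15 other proteases and inhibitors tested, 0 were higher and 3 lower, beside 4.46% and 7.29% of all genes tested. Those called lower were *Plau* (urokinase), *Mmp9* and *Plat* (tissue plasminogen activator). Their log2 folds were -0.89, -0.70 and -0.66, at levels of 103 normalized reads or fewer. *Mmp9* and *Plat* passed the minimum through the control library alone, and their intervals held 0, while that of *Plau* ran from -1.65 to -0.23. The 3 calls became 1 with a CPM of 1 in both libraries or a pseudocount of a CPM of 1, and 0 with a CPM of 5. *Plg*, the liver-made precursor of plasmin, read 102750 and 81575.

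**Figure D5:**
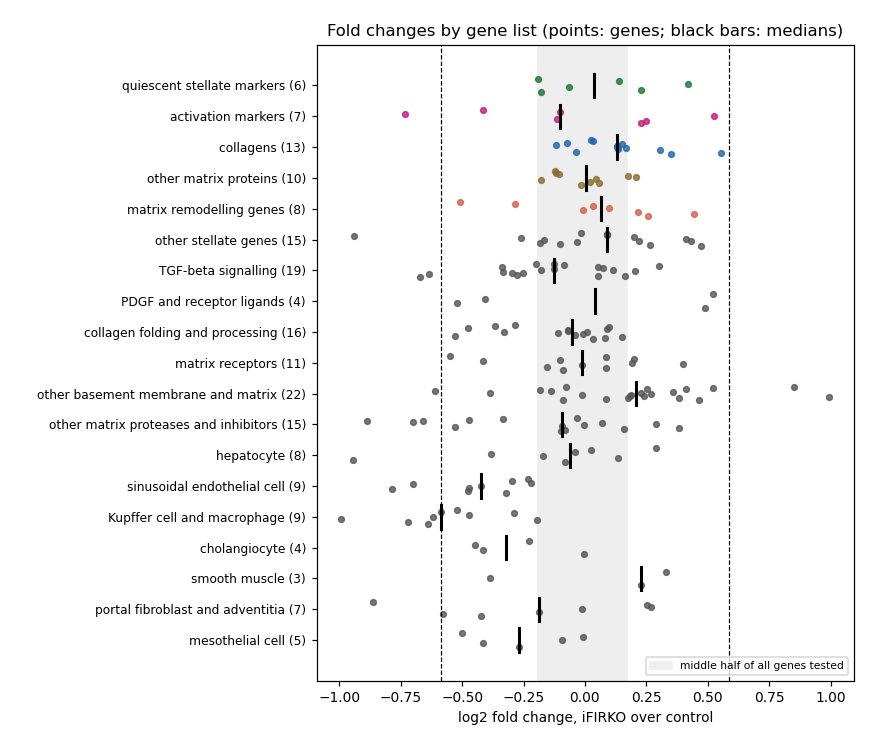
Log2 fold change, iFIRKO over control, of each tested gene (points) and list medians (black bars) for the 5 role groups (coloured), 7 pathway lists and 7 cell type lists (the adipocyte list is not drawn), with the number of genes tested in brackets; the grey band runs from the lower to the upper quartile of all genes tested and dashed lines mark a fold of 1.5. The smooth muscle list (0.23), the other basement membrane and matrix genes (0.21) and the collagens (0.13) have the highest medians drawn. The smooth muscle median is the value of Des, 1 of its 3 tested genes. The medians of the macrophage and endothelial lists lie lowest at -0.59 and -0.42.

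Cells other than the stellate cell that express some of these genes were read from the same libraries. The smooth muscle list held 3 tested genes, with a summed level of 770 and 900 normalized reads over all 6. Its median log2 fold of 0.23 is the value of *Des*, also a quiescent stellate marker here, between *Myh11* at -0.38 and *Smtn* at 0.33. The list of portal fibroblast and adventitial genes had a median of -0.19 (901 and 768 over 9 genes). Of its 7 tested genes 2 lay above 0 and 5 below, and 1 was called lower. That gene was *Thy1* (log2 fold -0.86, interval -1.95 to -0.07), which passed the minimum through the control library alone. The mesothelial list had a median of -0.27 (980 and 863 over 5 genes), with all 5 genes below 0 and all 5 intervals holding 0. Cholangiocyte markers had a median of -0.32 over 4 tested genes, all 4 of them below 0 with intervals that held 0. Hepatocyte markers had the highest summed level of the cell type lists, at 5320179 and 5018566 normalized reads over 8 genes. *Alb* alone read 4167154 and 3944155 of these. The median of the hepatocyte markers was -0.06, with 3 above 0, 5 below and 1 called lower (*Apoa1*, log2 fold -0.94). Over all genes tested, 7.29% were called lower. Of the adipocyte markers, *Adipoq*, *Plin1* and *Lep* were at 0 in 1 or both libraries, *Fabp4* read 470 and 469, and *Cidec*, which hepatocytes also express, read 17.9 and 108. The part of these cells in the values of *Acta2*, *Tagln*, *Des* and the collagens was not tested.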

How the data were processed

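Liver RNA of 1 control and 1 iFIRKO library was sequenced by the authors with the TruSeq stranded mRNA kit on a NovaSeq instrument. For each library the authors deposited the log2 of normalized reads for 53342 rows named by gene symbol, with 0 for a scaled count of 1 or less. The submitters' processing notes give the build mm10. The aligner, counter, annotation and use of strand are not given in the sources used here.

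Values were taken back to the linear scale, and the first row of a duplicated symbol was kept. The commonest low value of a library was taken as 1 read pair, which made 1 read worth 0.994 (control) and 1.01 (iFIRKO) normalized reads. Of the values under 40, 44.6% in each library were then whole pairs within 0.01, so read pairs are estimates. Estimated depths were 42276580 and 41304950 reads, and 62.2% and 62.1% of rows were at 0. No fold is given where either library had at most 3 read pairs for a gene. Intervals are exact Clopper-Pearson intervals at 95% and cover counting error only; they use no pseudocount. With 1 library a group there was no test, and the limits given above were set with a minimum CPM of 1, a pseudocount of a CPM of 0.1 and a fold of 1.5.

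The 44 genes and all lists were chosen with earlier results of these data known, so no list is independent evidence. All 44 may be named, and from each other list up to 3 genes by control level and up to 3 by size of log2 fold. Positions and exon lengths came from GENCODE M21, which held 49684 (93.3%) of the 53241 symbols. Promoters came from RefSeq. The result of 1 gene is not reported here. The tools were scipy 1.17.1, pandas 2.3.3, numpy 2.4.6 and matplotlib 3.10.9 under Python 3.11.15. Alternatives were other pseudocounts, expression minimums, scalings and folds, summed duplicate symbols, and the longest transcript as the length.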

Additional observations from a re-analysis of the deposited data

How the results depend on the processing

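No paired analysis was possible because control and iFIRKO have 1 library each. The 1 gene called lower among the 44, *Tgfb1*, was lost at a fold above 2, where 0 were lower. Across the pathway lists, 2 genes were called higher in the main setting, 1 with a pseudocount of a CPM of 1, 1 with a CPM of 1 in both libraries, 1 with a CPM of 5, 5 with no expression minimum and 0 at a fold above 2. The 7 called lower became 2 with the larger pseudocount, 2 with a CPM of 5 and 0 at a fold above 2. The median log2 fold of the matrix remodelling genes was 0.06, and -0.15 with a CPM of 5, where fewer of them were tested. Medians of the other role groups stayed within -0.06 to 0.04 (quiescent markers), -0.12 to -0.10 (activation markers), 0.11 to 0.13 (collagens) and -0.02 to 0.004 (other matrix proteins), and that of all 44 genes within 0.02 to 0.04. Of 389 single values of the 44 genes recomputed, 1 left its counting interval (*Fn1*, 0.02 with upper-quartile scaling) and 0 changed sign. All genes called higher and lower, 597 and 976 in the main setting, numbered 1956 and 2617 with no minimum, 371 and 576 with the larger pseudocount, 288 and 440 with a CPM of 5, and 209 and 267 at a fold above 2. Scalings divided the iFIRKO values by 1.014 at most. Counting error limits the scarcest members: the half-width of the interval ran from 0.019 to 0.93 on the log2 scale, with a median of 0.20, and 37 of 44 genes had over 100 read pairs in both libraries. Differences between mice are not covered by any of these values.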
